A study of Mus musculus with 10 samples.

Results

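Kif2a, its microtubule-depolymerizing relatives and 2 kinases that act on microtubule proteins were followed in dorsal root ganglia of mice, where the cell bodies of sensory neurons lie. The members were chosen by gene symbol, and all 8 (Kif2a, Kif2c, Kif24, Kif18a, Kif18b, Kif19a, Ttbk1 and Ttbk2) were found among the 23923 genes of the count table. The Kif2a_cKO group held 5 samples with the genotype Kif2a fl/fl; Avil cre, in which Avil, a gene of sensory neurons, drives cre. The control group held 5 samples that were Kif2a fl/fl without cre, although their titles read WT. Both groups therefore carried the floxed allele, and all samples were taken at an age of 1 month. Cre was present in 1 group only, so the effects of cre itself and of the deletion cannot be told apart. Which exons are floxed is not given in the labels. Nor do they state that the samples came from different animals, and p-values then cover the spread among these samples alone, which may be technical.

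Most kinesins walk along microtubules. Kinesin-13 motors such as Kif2a, Kif2c (also known as MCAK) and Kif24 instead remove tubulin from microtubule ends, and the kinesin-8 motors Kif18a, Kif18b and Kif19a act at plus ends, where Kif19a and, in some assays, Kif18a shorten microtubules. Kif2a is known for limiting axon branches in neurons and for its part in the pruning of sensory axons. Ttbk1 and Ttbk2 are tau tubulin kinases. Ttbk2 is needed to start cilium growth, and it phosphorylates Kif2a, which lowers the binding of Kif2a to microtubules.

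Library totals ran from 28686616 to 73031457 counts in Kif2a_cKO and from 17506135 to 34500320 in controls. Sensory neuron genes such as Nefm, Nefl and Tubb3, taken to check the tissue, were abundant in both groups. The 11 markers of that list summed to between 15343 and 19928 CPM in Kif2a_cKO and between 11675 and 19380 CPM in controls, where CPM is the count relative to the TMM-scaled library total. Central nervous system genes set some libraries apart. The 16 markers of that list were all measured and summed to between 70.2 and 336 CPM in Kif2a_cKO, against 767, 2226 and 744 CPM in controls 1, 3 and 5 and 93.3 and 98.7 CPM in controls 2 and 4. Values without controls 1, 3 and 5 are therefore given where they bear on a gene.

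The 3 promoters shown belong to the targeted gene and to the kinesin-8 members Kif18a, the only member whose 2 groups did not overlap, and Kif18b, its mitotic relative with the lowest count. Windows reach from 250 bases before to 50 bases after a start that RefSeq annotates, on the gene's strand (GRCm38.p6). RefSeq gives Kif2a 2 starts, and the window shown is the one that covers the start of the gene in the GENCODE annotation used here. Capitals mark 4 motifs searched on both strands: TTTGAA, the core of an element of late cell cycle genes, CCAAT, the NF-Y box, TGACGTCA, the cAMP response element, and GGGCGG, the Sp1 box.
Kif2a (chr13:107022065-107022364, minus strand): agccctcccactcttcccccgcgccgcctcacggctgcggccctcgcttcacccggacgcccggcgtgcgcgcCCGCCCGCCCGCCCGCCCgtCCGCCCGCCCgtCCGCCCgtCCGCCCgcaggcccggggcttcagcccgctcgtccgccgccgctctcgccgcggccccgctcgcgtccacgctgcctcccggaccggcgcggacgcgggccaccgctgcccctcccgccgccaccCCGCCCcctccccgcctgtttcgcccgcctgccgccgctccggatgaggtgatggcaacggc
Kif18a (chr2:109280488-109280787, plus strand): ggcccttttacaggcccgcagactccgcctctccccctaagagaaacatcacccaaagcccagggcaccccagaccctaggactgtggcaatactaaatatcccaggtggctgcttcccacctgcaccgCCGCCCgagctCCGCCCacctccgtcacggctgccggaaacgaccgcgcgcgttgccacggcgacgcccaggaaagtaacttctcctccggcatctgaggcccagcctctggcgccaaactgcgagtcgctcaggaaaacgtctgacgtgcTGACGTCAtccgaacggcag
Kif18b (chr11:102925075-102925374, minus strand): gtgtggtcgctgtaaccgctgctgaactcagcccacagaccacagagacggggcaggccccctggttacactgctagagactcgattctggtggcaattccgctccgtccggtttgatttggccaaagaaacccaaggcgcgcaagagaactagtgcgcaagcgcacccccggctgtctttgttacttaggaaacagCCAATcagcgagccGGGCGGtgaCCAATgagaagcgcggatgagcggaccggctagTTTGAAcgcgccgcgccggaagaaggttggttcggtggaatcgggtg

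The Kif2a window shown held 54 CG dinucleotides and 82.7% G or C, against medians of 7 and 52.7% over 32851 windows of the same length. It held GGGCGG 9 times, counting overlapping matches, a motif found in 35.7% of all windows, and none of the other 3. The other Kif2a window, farther upstream, held GGGCGG 4 times, none of the other 3, and 57 CG dinucleotides. The Kif18b window held TTTGAA once, CCAAT in 2 places and GGGCGG once. TTTGAA and CCAAT occurred together in 6.95% of all windows, and singly in 17.9% and 37.4%. The Kif18a window held GGGCGG in 2 places and TGACGTCA once, a motif of 1.79% of all windows. No match of 1 motif overlapped a match of another in these windows. Of the 8 members 7 had a window in the RefSeq table, and Kif19a was not among them. These matches describe letters and are not evidence of binding.

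Per length, the members split into an abundant and a scarce set of 4 genes each. Levels are CPM per kilobase of the union of annotated exons. Kif19a averaged 15.1 ± 2.51 in the 5 Kif2a_cKO libraries and 19.3 ± 3.35 in the 5 controls (errors are SD here and in all means that follow). Kif2a averaged 10.8 ± 0.694 and 11.0 ± 1.35 CPM per kilobase in Kif2a_cKO and controls. Ttbk2 averaged 8.67 ± 0.442 in Kif2a_cKO and 8.32 ± 0.552 in controls, and Ttbk1 7.82 ± 1.83 in Kif2a_cKO and 7.89 ± 1.25 in controls. Kif24, Kif2c, Kif18a and Kif18b averaged between 0.160 and 0.205 CPM per kilobase in Kif2a_cKO and between 0.131 and 0.190 in controls. The gap between the sets was wide: Ttbk1 lay 38.2-fold above Kif24 in Kif2a_cKO and 42.6-fold above it in controls.

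Neighbours in this order were not all separable. Kif19a lay above Kif2a in 4 of 5 Kif2a_cKO libraries and in 5 of 5 controls, and Kif2a lay above Ttbk2 in 5 of 5 libraries of each group. Ttbk2 lay above Ttbk1 in 4 of 5 libraries of each group, but with the longest transcript as the length it did so in 1 of 5 Kif2a_cKO libraries and 0 of 5 controls. Neighbours among the 4 scarce genes overlapped in their ranges, although Kif24 (0.161 to 0.246 CPM per kilobase) and Kif18a (0.104 to 0.154) did not overlap in controls. Among the 3 kinesin-13 genes Kif2a made up 96.5 ± 0.329% of the summed level in Kif2a_cKO and 96.6 ± 0.838% in controls. Among the 3 kinesin-8 genes Kif19a made up 97.7 ± 0.722% in Kif2a_cKO and 98.4 ± 0.746% in controls.

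**Figure D1:**
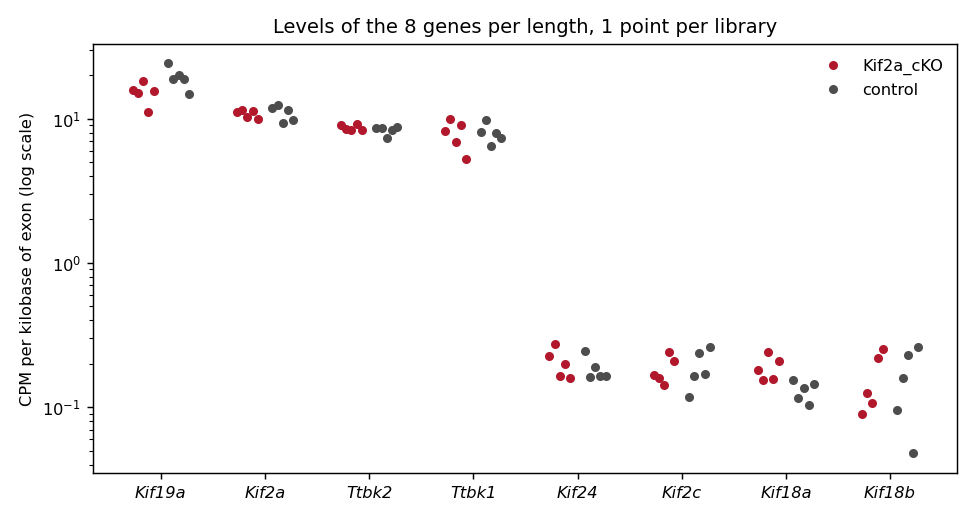
CPM per kilobase of exon (log axis) of the 8 genes, 1 point per library, Kif2a_cKO in red and controls in grey. Kif19a, Kif2a, Ttbk2 and Ttbk1 form the upper set and the other 4 genes the lower one, in both groups.

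Whether each gene differed between the groups was tested with edgeR over all 17439 genes with enough counts, which included all 8 members. None of the 8 passed at a Benjamini-Hochberg adjusted p under 0.05, a threshold that 3 of all tested genes (0.0172%) passed. DESeq2 and limma-voom also called 0 of the 8, against 0.163% and 0.0229% of all genes. At an unadjusted edgeR p under 0.05, which 6.98% of tested genes had, the members were Kif18a (higher; 2.97% of genes were higher at that p) and Kif19a (lower; 4.01%), and both other tools also counted 2 members (7.18% of genes in DESeq2 and 6.43% in limma-voom). In the authors' deposited table, too, 0 of the 8 carried the authors' pass mark, against 0.13% of all genes.

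**Figure D2:**
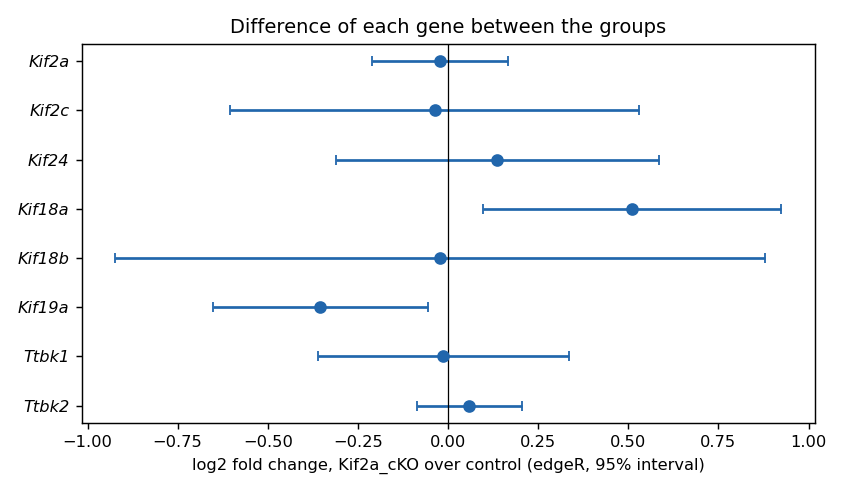
Log2 fold change of each gene in edgeR, Kif2a_cKO over control, with its 95% interval, n = 5 libraries per group. The intervals of Kif18a (0.10 to 0.92) and Kif19a (-0.65 to -0.06) lie to 1 side of 0 before adjustment and those of the other 6 genes span 0.

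The targeted gene, Kif2a, came first. It lies on chromosome 13 from 106958996 to 107022126, minus strand (GRCm38). Its levels were 71.4, 73.2, 65.6, 71.9 and 63.1 CPM in Kif2a_cKO 1 to 5, against 75.3, 79.7, 59.5, 73.6 and 62.7 CPM in controls 1 to 5. The Kif2a_cKO values lay inside the range of the controls. The log2 fold change (-0.02, SE 0.0872) had an edgeR adjusted p of 0.986 and a 95% interval from -13.6% to 12.2%, and a two-sided exact permutation test of log2 CPM gave p = 0.817. All 5 Kif2a_cKO values were below the control median of 73.6 CPM. Without controls 1, 3 and 5 it was -0.15 (SE 0.0927, edgeR adjusted p = 0.991), and with control 1 or control 2 alone left out its sign turned, to 0.0040 and 0.013.

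The count covers every exon and every cell of the ganglion, so it does not check the deletion, and fewer cells of a type and less RNA per cell cannot be told apart in it. Dimt1, on the opposite strand, shares 1229 exon bases with Kif2a and had 2593 counts over the 10 libraries, against 23809 for Kif2a. Strandedness is not given in the sources used here, so reads of the shared bases cannot be assigned to 1 gene with certainty. Avil, whose regulatory sequence drives cre, ran from 315 to 449 CPM in Kif2a_cKO and from 437 to 849 CPM in controls (log2 fold change -0.82, SE 0.156, edgeR adjusted p = 0.351). Kif2a was lowest in control 3, control 5 and Kif2a_cKO 5, and the summed level of the sensory neuron markers was lowest in the same 3 libraries (11675, 15686 and 15343 CPM). The part of neuron content in the Kif2a values was not tested in the fit.

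The genes with the library pattern closest to that of Kif2a were Cbl, a ubiquitin ligase, Gsk3b, a kinase that also phosphorylates tau, and Tnks, a poly-ADP-ribose polymerase. Likeness is the root mean square difference of centred log2 CPM over the 10 libraries, searched over 14990 genes with at least 1 CPM. It was 0.04 for each of the 3, against a spread of 0.13 for Kif2a itself.

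**Figure D3:**
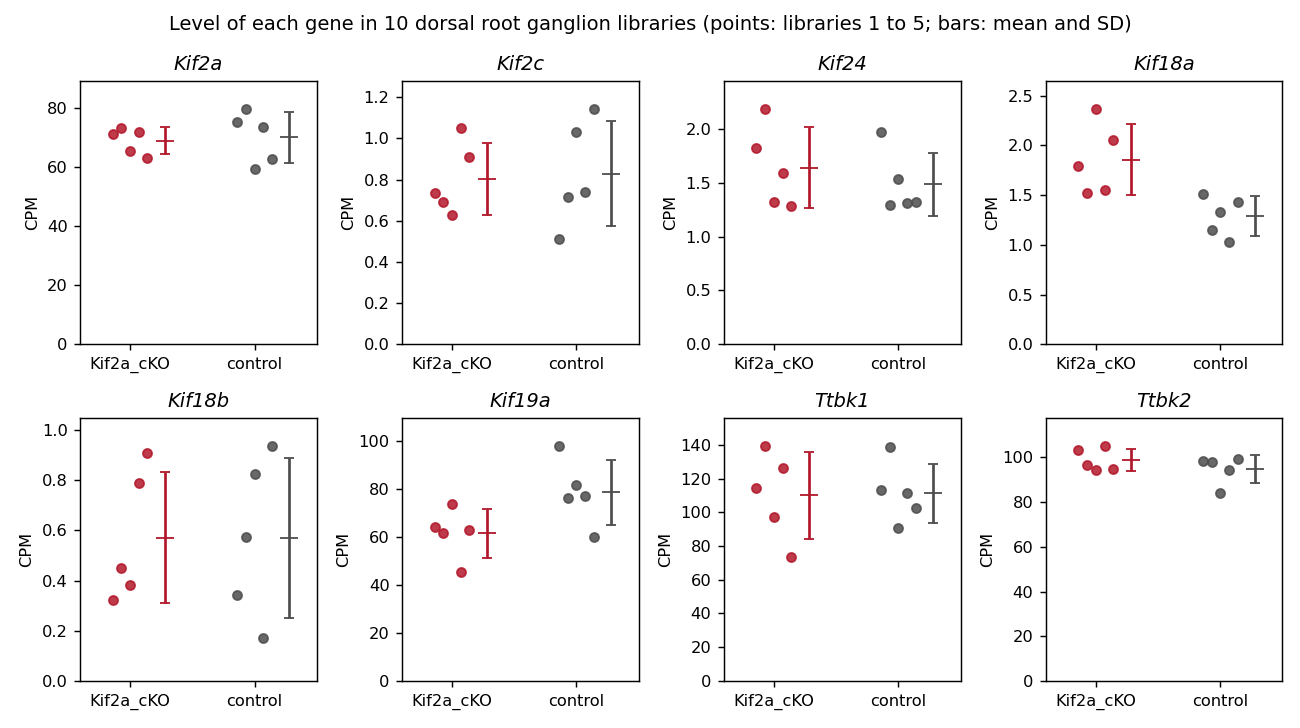
CPM of each gene by library (points) with the mean and SD beside them, Kif2a_cKO in red on the left and controls in grey on the right, each panel from 0. The 5 Kif18a values of Kif2a_cKO (1.53 to 2.36 CPM) lie above the 5 controls (1.03 to 1.51 CPM), while the groups overlap in the other 7 genes.

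The other kinesin-13 genes, Kif2c and Kif24, were scarce and differed by less than their spread. Kif2c corrects faulty attachments of microtubules to chromosomes. It had 0.734, 0.693, 0.626, 1.05 and 0.910 CPM in Kif2a_cKO 1 to 5, against 0.514, 0.717, 1.03, 0.741 and 1.14 CPM in controls 1 to 5. All 5 Kif2a_cKO values lay within the range of the controls (log2 fold change -0.04, SE 0.262, edgeR adjusted p = 0.994, 95% interval from -34.3% to 44.4%). Kif24 trims microtubules at the centriole and holds back cilium growth. Its levels were 1.82, 2.18, 1.32, 1.59 and 1.28 CPM in Kif2a_cKO 1 to 5, against 1.97, 1.29, 1.53, 1.31 and 1.32 CPM in controls 1 to 5. Kif2a_cKO 2 held the highest and Kif2a_cKO 5 the lowest value (log2 fold change 0.14, SE 0.207, edgeR adjusted p = 0.936, 95% interval from -19.4% to 49.9%). The intervals of both genes are wide, at 13 to 115 counts per library, and differences inside them were not resolved.

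Kif18a, which damps the movements of chromosomes in mitosis, was the 1 member without overlap. Its levels were 1.79, 1.53, 2.36, 1.55 and 2.06 CPM in Kif2a_cKO 1 to 5, against 1.51, 1.15, 1.33, 1.03 and 1.43 CPM in controls 1 to 5. Every Kif2a_cKO library lay above every control, though Kif2a_cKO 2 and control 1 nearly met. Of all tested genes 1.17% had groups that did not overlap. The log2 fold change was 0.51 (SE 0.192, 95% interval from 6.85% to 89.7% higher), with an unadjusted edgeR p of 0.0197 and an adjusted p of 0.703. The two-sided exact permutation test gave p = 0.00794, the smallest that 5 against 5 libraries allow, without adjustment for the number of genes. In the authors' deposited table its log2 fold change was 0.49 and its false discovery rate 0.523.

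These values rest on 18 to 112 counts per library. With every library thinned to the smallest total of 17506135 counts, Kif18a had a log2 fold change of 0.32 (SE 0.240), with an unadjusted edgeR p of 0.199 and an adjusted p of 0.823. Without controls 1, 3 and 5 it was 0.76 (SE 0.278, edgeR adjusted p = 0.991). The exons of Kif18a share 11 bases with Mettl15 on the other strand. Genes of closest library pattern were Rtl1, Pcp4 and Acvrl1, at a root mean square difference of 0.17 to 0.19 against a spread of 0.33 for Kif18a itself.

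Kif18b, which acts on astral microtubules in mitosis, varied most between libraries. It had 0.323, 0.451, 0.383, 0.789 and 0.910 CPM in Kif2a_cKO 1 to 5, against 0.342, 0.574, 0.826, 0.171 and 0.937 CPM in controls 1 to 5. Control 4 held only 3 counts. Its log2 fold change of -0.02 (SE 0.417) had an edgeR adjusted p of 0.998, and the 95% interval ran from -47.2% to 84.0%. Controls 1 and 3, with similar library totals, held 12 and 28 counts. Without controls 1, 3 and 5 it was 0.55 (SE 0.577, edgeR adjusted p = 0.991).

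Kif19a, which shortens microtubules at the tip of motile cilia, had the highest mean level per length among the members. It lies on chromosome 11 from 114765388 to 114790739, plus strand. Its levels were 64.1, 61.4, 73.8, 45.5 and 62.7 CPM in Kif2a_cKO 1 to 5, against 97.9, 76.4, 81.7, 77.0 and 59.8 CPM in controls 1 to 5. Control 5 lay below 4 of the Kif2a_cKO libraries, and the other 4 controls lay above all 5 of them. The log2 fold change was -0.35 (SE 0.137, 95% interval from -36.4% to -3.86%), with an unadjusted edgeR p of 0.0234 and an adjusted p of 0.703. The exact permutation test gave p = 0.0714. In the authors' deposited table its log2 fold change was -0.36 and its false discovery rate 0.421.

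Levels of 2 lists of markers of other cells are set beside Kif19a. No tested gene of either was called in edgeR, and both sums overlapped between the groups. The 12 ciliated ependymal markers, such as Foxj1, were all measured, with Ccdc153 and Tmem212 at 0 in some libraries. They summed to between 19.5 and 29.3 CPM in Kif2a_cKO and between 21.8 and 115 CPM in controls. In controls 1, 3 and 5 their sums were 115, 70.2 and 40.0 CPM. The 8 that were tested all had a log2 fold change below 0 (median -1.66). Of these, 6 had an unadjusted edgeR p under 0.05, beside 4.01% of all tested genes that were lower at that p. The 7 Schwann cell markers used, among them Mbp and Pmp22, summed to between 14031 and 21369 CPM in Kif2a_cKO and between 18469 and 27869 CPM in controls, and none was at 0. Mbp, which oligodendrocytes of the central nervous system also express, made up most of that sum, at 10465 CPM in Kif2a_cKO and 14334 CPM in controls on average. Of the 7 markers 6 had a log2 fold change below 0, and Scn7a one of 0.26 (SE 0.105, edgeR adjusted p = 0.703). At an unadjusted edgeR p under 0.05, 2 of the 7 were lower (Prx and Mbp) and 1 was higher (Scn7a). Of all tested genes 4.01% were lower and 2.97% higher at that p. In controls 2 and 4 Kif19a was at 76.4 and 77.0 CPM, above all 5 Kif2a_cKO libraries. There the ciliated markers summed to 24.4 and 21.8 CPM and the central nervous system markers to 93.3 and 98.7 CPM. In Kif2a_cKO 1 to 5 the central nervous system markers summed to 176, 70.2, 334, 328 and 336 CPM. Controls 2 and 4 were thus not matched to the Kif2a_cKO libraries in that content. Without controls 1, 3 and 5 Kif19a had a log2 fold change of -0.32 (SE 0.152), with an unadjusted edgeR p of 0.0612 and an adjusted p of 0.991. The parts of Schwann cell, ciliated cell and central nervous system content were not tested in the fit.

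The genes closest to Kif19a in library pattern were Smtn, Prx and Ajuba, each at a root mean square difference of 0.10 against a spread of 0.29 for Kif19a. Prx encodes periaxin, a myelin protein of Schwann cells, and is itself 1 of the 7 Schwann cell markers. Its log2 fold change was -0.35, and those of Smtn and Ajuba were -0.28 and -0.34, all uncalled. Likeness was taken over all libraries of both groups, so fold changes near that of Kif19a follow from the choice of these genes.

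**Figure D4:**
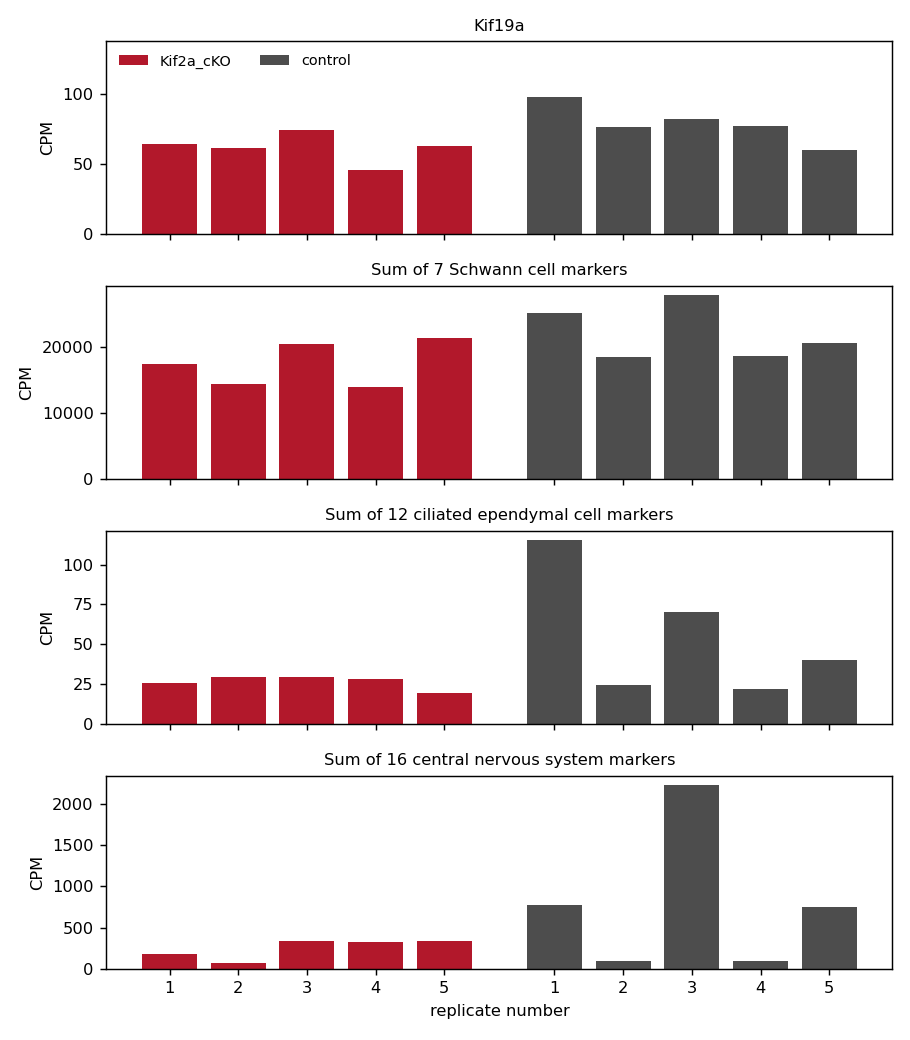
Kif19a and the summed CPM of Schwann cell, ciliated ependymal and central nervous system markers in each library, Kif2a_cKO 1 to 5 in red on the left and controls 1 to 5 in grey on the right, every axis from 0. Kif19a was highest in control 1, as was the ciliated sum at 115 CPM, whereas the central nervous system sum was highest in control 3 at 2226 CPM.

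The kinases did not differ detectably. Ttbk1, known mainly from neurons, had 115, 139, 97.2, 127 and 73.4 CPM in Kif2a_cKO 1 to 5, against 113, 138, 90.8, 111 and 103 CPM in controls 1 to 5. Kif2a_cKO 5 was the lowest and Kif2a_cKO 2 the highest library, so the groups overlapped (log2 fold change -0.01, SE 0.160, edgeR adjusted p = 0.996, 95% interval from -22.2% to 26.2%). Ttbk2 had 103, 96.5, 94.6, 105 and 94.7 CPM in Kif2a_cKO 1 to 5, against 98.6, 98.0, 84.2, 94.4 and 99.4 CPM in controls 1 to 5. It was the steadiest member, with a coefficient of variation of 5.10% in Kif2a_cKO and 6.63% in controls. For Ttbk2 the log2 fold change of 0.06 (SE 0.0673) had an edgeR adjusted p of 0.902, and the 95% interval from -5.84% to 15.2% was the narrowest of the 8.

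Ttbk1 followed Lingo1, a neuronal membrane protein, Dctn1, the large dynactin subunit, and Lrp3, with root mean square differences of 0.04 to 0.05 against its own spread of 0.27. Ttbk2 followed Trim2, Golga4 and Slc35f6 at 0.03 to 0.04 against a spread of 0.08. Ttbk2 shares 3409 exon bases with Cdan1 on the same strand, which had 4280 counts over the 10 libraries against 33531 for Ttbk2. Reads of those bases are uncertain between both genes.

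The wider pathway was followed in a list. The list of 45 kinesin-13 regulators, cilium partners, Ttbk substrates and mitotic genes had 43 in the table, all tested, and Kif2b and Kif19b were not analysed here. None of the 43 was called by edgeR, DESeq2 or limma-voom, beside 0.0172%, 0.163% and 0.0229% of all genes. In each tool 1 of the 43 had an unadjusted p under 0.05, beside 6.98%, 7.18% and 6.43% of all genes. The list held 30 members with a log2 fold change above 0 and 13 below, with a median of 0.04. That was 69.8% above 0, beside 52.1% above 0 and a median of 0.01 over all genes tested. Without controls 1, 3 and 5 it held 26 above 0 and 17 below, beside 8973 above and 9174 below over all genes tested. Again none was called, but in that fit 0 of all 18147 genes were. The gene past the unadjusted p in edgeR was Cdk5, a neuronal kinase that phosphorylates Kif2a. It averaged 150.3 ± 3.59 CPM in Kif2a_cKO and 138 ± 4.80 CPM in controls, with groups that did not overlap (147 to 155 CPM against 130.2 to 143 CPM). Groups without overlap were found in 1.17% of all tested genes. The log2 fold change of Cdk5 was 0.13 (SE 0.0578), with an unadjusted edgeR p of 0.0478 and an adjusted p of 0.703.

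The most abundant genes of the list were Mapre2, a plus-end binding protein, and Mapt, which encodes tau. Mapre2 averaged 377 CPM in Kif2a_cKO and 359 CPM in controls (log2 fold change 0.07, SE 0.120), and Mapt 374 CPM in Kif2a_cKO and 363 CPM in controls (log2 fold change 0.04, SE 0.122). The 7 cilium partners had a median log2 fold change of 0.05, the 18 regulators one of 0.03 and the 15 mitotic genes one of 0.14. The summed level of the mitotic genes was between 34.9 and 50.9 CPM in Kif2a_cKO and between 30.7 and 42.1 CPM in controls. Bub1, a spindle checkpoint kinase, and Cdk1, the mitotic kinase, had the largest log2 fold changes above 0 of the list, 0.61 (SE 0.301, edgeR adjusted p = 0.708) and 0.37 (SE 0.180, edgeR adjusted p = 0.707), and were named after their values were seen. So were the 3 genes farthest below 0, the mitotic genes Kif4 at -0.45 (SE 0.439) and Ccnb1 at -0.36 (SE 0.408) and the Ttbk substrate Sv2a at -0.38 (SE 0.232).

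**Figure D5:**
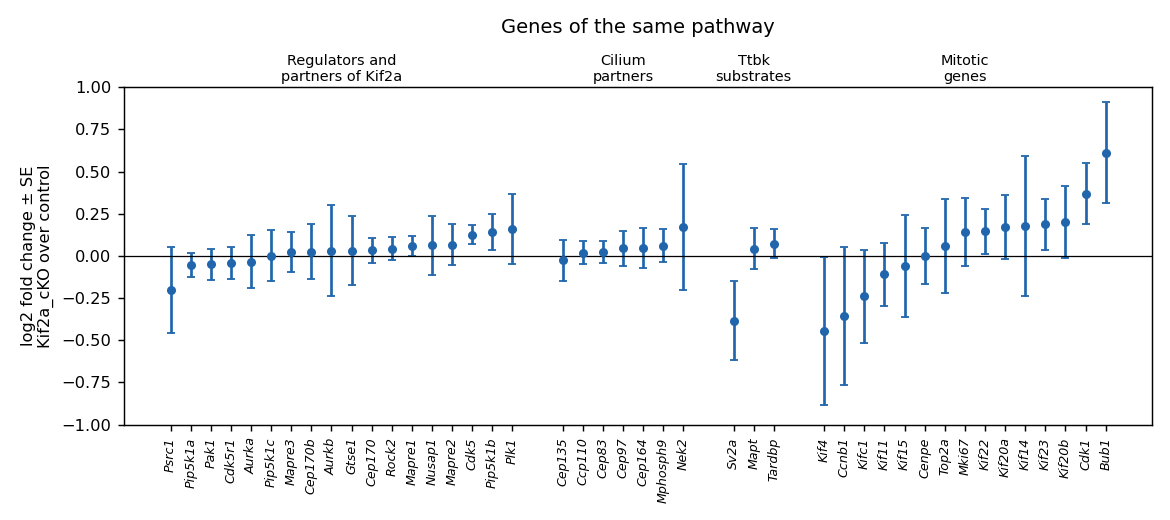
Log2 fold change ± SE (edgeR, Kif2a_cKO over control) of the 43 tested genes of the pathway list, grouped by role and sorted within each group. Cdk5 is at 0.13 and the widest errors belong to scarce mitotic genes such as Kif4.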

How the data were processed

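Polyadenylated RNA of 10 dorsal root ganglion samples (5 Kif2a_cKO, 5 control, grouped by their titles and genotypes) was sequenced, per the labels. cutadapt, STAR and DESeq2 were used with mm10, per the submitters' processing notes; no source used here gives versions, the read counter, the annotation, strandedness or filters. Raw counts were deposited by gene symbol, with at least 6 over the 10 libraries in each row. The authors also deposited a normalized signal (count divided by a size factor), regularized log2 values, a log2 fold change, and a p-value with a false discovery rate calculated with fdrtools, per the file headers. Only raw counts were tested here. Counts are summed over a gene and cannot separate exons, isoforms or cells.

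The test was that of edgeR 4.0.16 under R 4.3.3: filterByExpr (minimum count 10, minimum total 15; 17439 of 23923 genes kept), TMM, and a robust quasi-likelihood F test on the group alone, with Benjamini-Hochberg adjustment over all genes tested and a threshold of 0.05. The standard error is the log2 fold change divided by the square root of F. Log2 CPM used a prior count of 2. Exact permutation tests used all 252 assignments of the group labels. Gene positions and exon lengths came from GENCODE release M21 (GRCm38), which 97.4% of symbols matched. The lowest chi-square between replicates was 14.3 per gene among the pairs with a value. Several pairs, such as controls 2 and 4, gave none. Log2 CPM correlated at 0.964 to 0.989 over all pairs within a group, and no library was merged with another. Alternatives were DESeq2 1.42.0, limma-voom (limma 3.58.1), other scalings and filters, thinning, a replicate block, and leaving out libraries. The tools were tested on simulated data. Members and lists were chosen with earlier results of these data known, and 1 gene of the Schwann cell list is not reported here and was left out of its sums. Named genes are the members, list genes that were called, had an unadjusted p under 0.05 or were the 2 most abundant, up to 3 abundant markers of a list, and the 3 genes closest to a member; others were named after their values were seen, as were Ccdc153, Tmem212, Scn7a and the list genes farthest from 0.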

Additional observations from a re-analysis of the deposited data

How the results depend on the processing

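No member was called in any planned fit that tested it (other scalings, filters and tools, a threshold of 0.1, thinning, the replicate block, and libraries left out). Kif2c and Kif18b were not tested with at least 1 CPM required in 5 libraries. Scaling by library totals gave 241 higher and 995 lower genes at an unadjusted p under 0.05, against 518 and 699 with TMM, and a median log2 fold change of -0.03. The number of all genes called, 3 in edgeR as reported, was 39 with DESeq2, 1 after thinning, and 0 in edgeR with at least 1 CPM in 5 libraries (1011 genes at an unadjusted p under 0.05) or without controls 1, 3 and 5 together (604). With 1 library left out in turn it ran from 0 to 3, with 801 to 1527 genes at an unadjusted p under 0.05. Kif18a kept its direction in 19 of 19 fits, with an unadjusted p under 0.05 in 14 and adjusted p between 0.537 and 0.991, and Kif19a in 19 of 19, with 16 and between 0.464 and 0.991. Signs near 0 turned: with limma-voom Kif2c was at 0.081, Kif18b at 0.15 and Ttbk1 at 0.0053, and without controls 1, 3 and 5 together Kif2c was at 0.16 and Kif18b at 0.55. With 1 library left out, log2 fold changes ran from -0.092 to 0.013 for Kif2a, from -0.18 to 0.099 for Kif2c, from -0.24 to 0.21 for Kif18b and from -0.11 to 0.091 for Ttbk1. With the longest transcript as the length, the mean CPM per kilobase over 10 libraries was 13.1 for Kif2a, 12.4 for Ttbk1, 0.279 for Kif24, 0.287 for Kif2c and 0.242 for Kif18a, against 10.9, 7.86, 0.195, 0.187 and 0.160 with the exon union.

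The labels do not say what a shared replicate number means, although the titles of same-numbered samples carry adjacent numbers. Deviations of same-numbered libraries correlated at -0.15 in pair 4 and at 0.14 to 0.37 in the other pairs. Of the 5 Kif2a_cKO libraries 4 correlated best with their own number, a hint of pairing. Pairing is not stated in the labels and pair 4 did not show it. The group alone was therefore the main fit, and the intervals given above take no account of a possible pairing. The replicate block left 0 genes called in edgeR, with 1499 below an unadjusted p of 0.05, Kif18b at 0.0024 and Kif2a at -0.02. Relative to the sensory neuron markers, a scale added after the data were seen, Ttbk2 was at -0.086. Kif18b, the scarcest gene, had 3 to 57 counts per library.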

Other observations

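Levels relative to a marker list were taken after the data were seen, for 4 genes. Kif2a, as log2 CPM minus the mean log2 CPM of 10 sensory neuron markers without Avil, was at -3.84, -3.88, -3.92, -3.94 and -3.74 in Kif2a_cKO 1 to 5, against -3.65, -3.79, -3.48, -3.77 and -3.82 in controls 1 to 5. Of the Kif2a_cKO libraries 4 lay below all controls. The difference was -0.16, with a two-sided exact permutation p of 0.0476, or 0.175 adjusted over the 4 genes. Without control 3 it was -0.11 (exact permutation p = 0.0873). The markers take part in this difference. Of the 11 markers with Avil, 10 had a log2 fold change above 0 and 1 below (median 0.135), while that of Kif2a was -0.02. A lower relative level is therefore not by itself a lower level of Kif2a. On the same scale Ttbk1 differed by -0.18 (exact permutation p = 0.143, adjusted 0.190) and Ttbk2 by -0.09 (p = 0.460), the opposite sign to its fold change in edgeR. Without control 3 Ttbk2 differed by -0.016 (exact permutation p = 0.849), Ttbk1 by -0.14 (p = 0.294) and Kif19a, on its scale, by -0.15 (p = 0.190). Kif19a relative to the 7 Schwann cell markers differed by -0.18 (exact permutation p = 0.0873, adjusted 0.175), with 1 of 5 Kif2a_cKO libraries below all controls.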
